A study of Mus musculus with 4 samples.

Results

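The genes described here carry a cell through mitosis: the regulators of mitotic entry, the proteins of the kinetochore, the spindle checkpoint and the spindle, the chromosomal passenger complex, and the proteins of anaphase and cytokinesis. They were chosen as 53 gene symbols, and every probe set annotated to 1 of these symbols alone was read on all 4 arrays. Of the 53 genes, 52 were measured by 109 probe sets, among 18193 genes and 45037 probe sets in all, and Ccnb1 was not analysed here.

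The arrays held RNA of sorted B cells from adult C57BL6/J wild type mice kept under specific pathogen-free conditions. The sort took B220+PNA+Fas+ cells as germinal centre (GC) B cells, and B220+PNA-Fas- cells as their naive counterpart, each from Peyer's patches (PP) of untreated mice and from peripheral lymph nodes (pLN) of mice immunized with TNP-KLH, a hapten coupled to a carrier protein, in incomplete Freund's adjuvant. Each of these 4 groups was 1 array of RNA pooled from 3 to 5 mice, so tissue and immunization cannot be told apart. The cell type difference was seen once in each of the 2 tissues, and p-values measure no variation between mice. They set the mean difference of the tissues against a spread that rests on 1 residual degree of freedom and, mostly, on a prior drawn from all probe sets (median 27.4 degrees of freedom).

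Germinal centres are the sites in lymphoid follicles where B cells that have met antigen divide rapidly while mutating their antibody genes. Naive B cells rest outside the cell cycle. As a cell enters mitosis, cyclin-dependent kinase 1 with its B-type cyclins triggers chromosome condensation and spindle assembly, and kinetochores, built on the centromeres, capture the spindle microtubules. The spindle checkpoint holds the cell until all kinetochores are attached. The anaphase-promoting complex with Cdc20 then marks securin and cyclins for destruction, separase cuts the cohesin that holds sister chromatids, and a contractile ring divides the cell. Many of these genes are transcribed late in the cell cycle, and their promoters are known for a cell cycle homology region (CHR) bound by the MuvB complexes with B-Myb and Foxm1, and for CCAAT boxes bound by NF-Y.

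Promoter sequences are shown first, and their part in the difference between the cell types was not tested. RefSeq promoters (GRCm38.p6, 250 bases before to 50 after each annotated start) were found for 41 of the 52 measured members. They were searched on both strands for TTTGAA, a CHR core read as TTCAAA on the other strand, and for CCAAT, read as ATTGG on the other strand. TTTGAA was present in 27 of 41 members (65.9%), against 20.2% of 27025 genes in the table. CCAAT was present in 32 of 41 members (78.0%), against 41.1% of all genes. Both stood in 25 of 41 member promoters (61.0%), against 7.97%. The windows below run from 100 bases before to 30 after the start, 5′ to 3′ on the gene's strand, with the 2 motifs of either orientation in capitals. The first 8, 1 from each step of mitosis, were chosen among members called higher in GC cells in the comparison of cell types. Each has the largest difference of its step among those whose window holds both motifs. Ndc80 and Pttg1, which follow, are the members not called in that comparison whose promoters are in the table. They are shown whatever their motifs, so the contrast with the first 8 follows from this choice.
Cdk1, chr10:69352883-69353012, minus strand: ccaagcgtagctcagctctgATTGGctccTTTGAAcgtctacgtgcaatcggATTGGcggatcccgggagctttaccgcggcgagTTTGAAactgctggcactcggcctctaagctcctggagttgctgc
Top2a, chr11:99024160-99024289, minus strand: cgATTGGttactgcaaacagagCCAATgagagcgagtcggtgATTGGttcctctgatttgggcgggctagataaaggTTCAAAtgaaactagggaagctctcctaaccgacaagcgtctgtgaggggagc
Cenpf, chr1:189688057-189688186, minus strand: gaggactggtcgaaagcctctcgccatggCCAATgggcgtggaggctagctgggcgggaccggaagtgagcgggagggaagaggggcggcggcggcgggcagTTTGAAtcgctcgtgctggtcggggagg
Kntc1, chr5:123749626-123749755, plus strand: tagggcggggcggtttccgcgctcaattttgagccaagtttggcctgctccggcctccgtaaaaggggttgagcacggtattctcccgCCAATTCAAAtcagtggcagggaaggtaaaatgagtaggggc
Spag5, chr11:78301491-78301620, plus strand: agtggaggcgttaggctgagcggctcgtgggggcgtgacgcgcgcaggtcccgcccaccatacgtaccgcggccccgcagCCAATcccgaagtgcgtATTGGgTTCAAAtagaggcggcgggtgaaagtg
Cdca8, chr4:124936888-124937017, minus strand: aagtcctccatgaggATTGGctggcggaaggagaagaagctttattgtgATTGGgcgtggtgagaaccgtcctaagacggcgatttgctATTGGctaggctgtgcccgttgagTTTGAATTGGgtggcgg
Ube2c, chr2:164769829-164769958, plus strand: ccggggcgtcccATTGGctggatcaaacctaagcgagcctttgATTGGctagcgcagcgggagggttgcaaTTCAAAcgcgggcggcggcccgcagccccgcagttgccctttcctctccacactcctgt
Ect2, chr3:27153825-27153954, minus strand: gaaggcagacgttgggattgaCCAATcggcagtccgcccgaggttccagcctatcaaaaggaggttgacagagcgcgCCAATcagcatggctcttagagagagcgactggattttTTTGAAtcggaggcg
Ndc80, chr17:71526828-71526957, minus strand: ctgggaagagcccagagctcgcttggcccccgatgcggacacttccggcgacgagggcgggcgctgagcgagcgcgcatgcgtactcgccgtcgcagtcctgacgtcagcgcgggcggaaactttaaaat
Pttg1, chr11:43425952-43426081, minus strand: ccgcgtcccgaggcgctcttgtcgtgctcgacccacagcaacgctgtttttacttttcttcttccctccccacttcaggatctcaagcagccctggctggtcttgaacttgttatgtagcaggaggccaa
In the Kntc1 and Cdca8 windows the 2 motifs overlap by 1 base. The Ndc80 and Pttg1 windows hold no match, and in the longer promoter Ndc80 has a TTTGAA match 29 bases after the start. These letters say nothing of whether a factor binds there. Members without an entry in the table were Foxm1, Ccna2, Cdc25c, Pbk, Spc24, Zwilch, Tpx2, Dlgap5, Aurkb, Incenp and Shcbp1.

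The matches were not spread evenly along the promoters. From the start to 50 bases after it, TTTGAA occurred 40.0 times per 100 member promoters, against 2.30 times per 100 promoters of the whole table. CCAAT was densest just upstream, with 57.8 matches per 100 member promoters in the last 50 bases before the start, against 9.72 over all promoters. In the window from 50 bases before to 50 after the start, 24 of the 41 members (58.5%) had TTTGAA, against 5.72% of all genes. At least 2 CCAAT matches stood in 21 members (51.2%), against 13.3%. The related letters TTCGAA were in 4 members (9.76%), against 1.80%. By step, TTTGAA was in 4 of 6 entry genes, 5 of 10 kinetochore genes, 3 of 5 checkpoint genes, 5 of 7 spindle genes and 4 of 5 cytokinesis genes. Birc5, Nusap1, Nuf2, Mad2l1, Melk and Cit, all called higher in GC cells, had neither motif in this table's promoter.

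**Figure D1:**
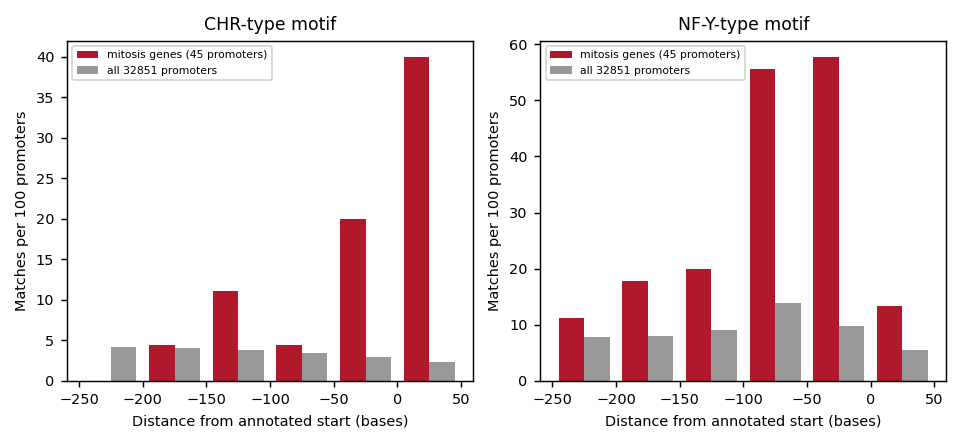
Matches per 100 promoters in bins of 50 bases from 250 before to 50 after the annotated start, for the CHR-type motif and the NF-Y-type motif, in 45 promoters of 41 members and in 32851 promoters of all genes in the table. The CHR-type motif reaches 40.0 per 100 member promoters in the bin after the start and the NF-Y-type motif 57.8 in the bin before it.

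Facts of the whole arrays bear on every value below. Signals are in arbitrary units on a scale that gives every array a 2% trimmed mean of 500. The detection level of an array, the 90th percentile of 123 probe sets for genes of other tissues, was 104 on GC PP, 107 on naive PP, 61.4 on GC pLN and 75.4 on naive pLN. For Gapdh, the signal of the 3′ control probe set over that of the 5′ one, a sign of RNA length, was 1.67 on GC PP, 96.4 on naive PP, 1.48 on GC pLN and 18.7 on naive pLN, so both naive arrays, and naive PP most, carried a 3′ bias. The geometric mean of 9 hybridisation spike-in probe sets was 4235 and 4183 on the GC arrays of PP and pLN, against 17226 and 8306 on the naive arrays. These moved with cell type, and their part in the results was not tested. All 7 measured B cell markers lay above the level on all 4 arrays, and 6 of 7 GC markers were called higher in GC cells, Bcl6 being the exception. Of 11 T cell markers, 6 and 8 were above the level on the GC arrays of PP and pLN, against 2 and 8 on the naive arrays, with summed signals of 3344 and 5528 against 15423 and 11247. Cd2 made up most of these sums, with 2052 and 4752 on the GC arrays against 14643 and 9697 on the naive arrays. Of the Cd3 genes, Cd3d had 236 on GC PP against 43.2 on naive PP, Cd3e 244 against 74.1 and Cd3g 204 against 12.9. In pLN the same genes had 106, 95.3 and 74.6 on the GC array, against 84.1, 95.8 and 52.0 on the naive array. Of the 11 T cell markers, 1 was called higher in GC cells, 2 were called lower and 8 were not called. Cd3g was called higher (log2 difference 1.73, adjusted p = 0.043). Those called lower were Cd2 (-1.93, adjusted p = 0.0045) and Cd8a (-1.24, adjusted p = 0.046). Of 7 plasma cell markers, 6 were above the level on each GC array, against 4 and 5 on the naive arrays of PP and pLN, and Prdm1, Jchain and Mzb1 were called higher in GC cells. Of 12 macrophage and dendritic cell markers, 5 and 4 were above the level on the GC arrays of PP and pLN, against 3 and 4 on the naive arrays, with Lyz2 and Flt3 called higher and Adgre1 lower. The part of these markers in the results was not tested. In bulk RNA, fewer cells of a type and less RNA per cell cannot be told apart.

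GC B cells had higher transcripts of almost all of these mitosis genes in both tissues. All 52 measured members were above the detection level on both GC arrays, while 21 were under it on both naive arrays, 10 on 1 naive array and 21 on neither. In the fit over all probe sets (limma, tissue as a block, Benjamini-Hochberg adjusted p under 0.05), 49 of 52 members were higher in GC cells, 0 were lower and 3 were not called, against 12.7% of all genes called higher and 14.7% called lower. Those not called were Ndc80, Incenp and Pttg1, of which Incenp was called higher with quantile normalization, cyclic loess, spike-in scaling, probe sets averaged, or either naive array left out. Ndc80 was called higher with spike-in scaling, with naive pLN left out, or in the fit of probe sets averaged by gene. It has 1 probe set, so its log2 difference of 0.97 was the same in that fit. The members called higher had log2 differences (log2 of signal plus an offset of 13.5, GC minus naive) from 1.96 to 6.93. The median over the 52 was 4.02, and over all genes -0.33. Summed over members, the signal was 135490 on GC PP against 13192 on naive PP, and 114041 on GC pLN against 18428 on naive pLN. Both GC arrays lay above both naive arrays for 51 of 52 members, against 24.5% of all genes. Where both naive signals were under the level, folds are given as bounds against that level. For those 21 members the bounds had a median of 22.2-fold and ran from 5.66-fold to 37.6-fold.

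**Figure D2:**
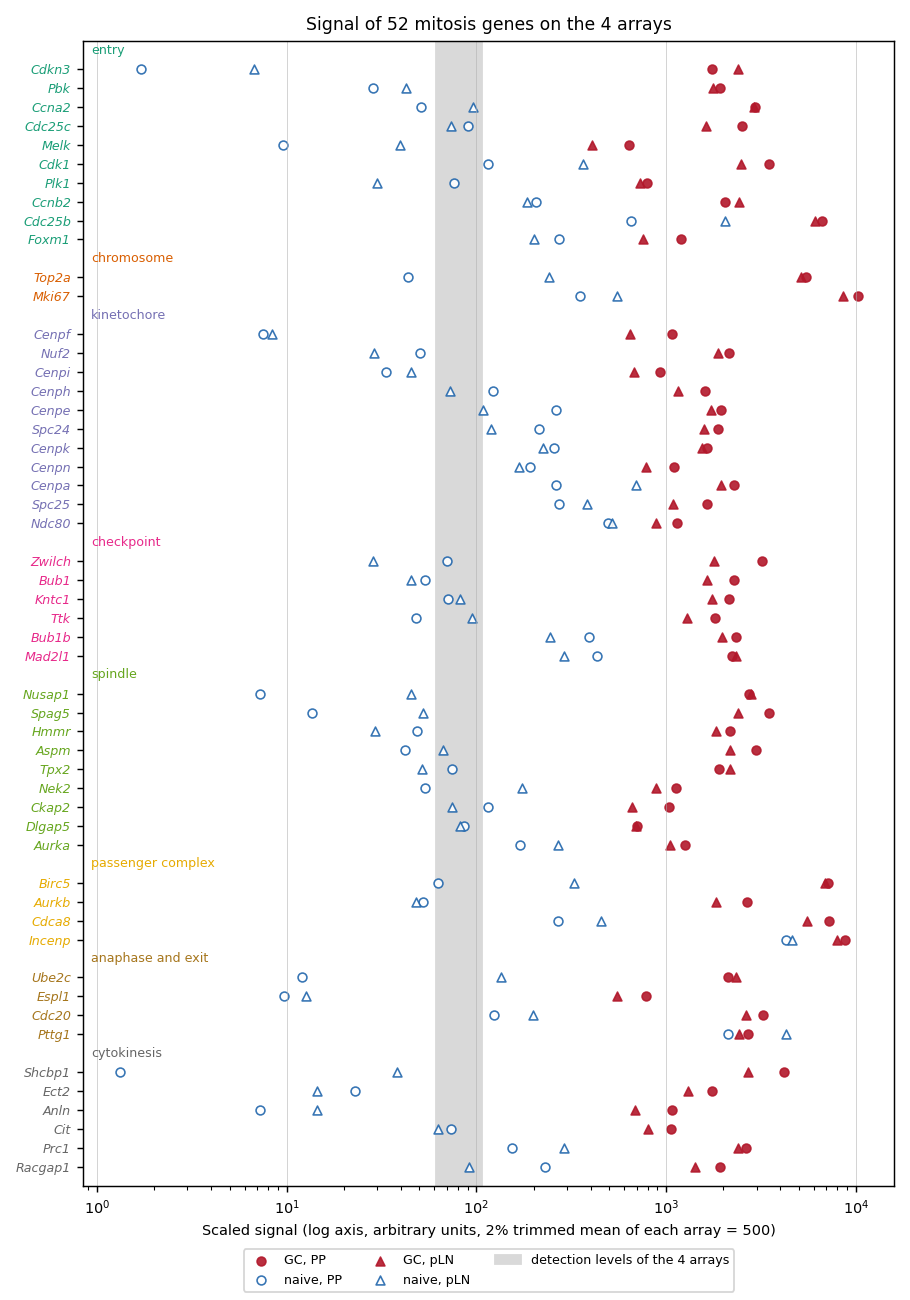
Scaled signal (log axis, arbitrary units) of the representative probe set of each of 52 members, ordered by step, with 1 point per array and a grey band for the detection levels of the 4 arrays (61.4 to 107). The GC points of each gene lie right of the naive points except at Pttg1, and for 21 genes both naive points lie under the level of their array.

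Among the entry genes, all 10 measured were higher in GC cells by the test, and their median log2 difference was 3.82. Cdkn3, a phosphatase acting on cyclin-dependent kinases, had signals of 1746 on GC PP and 2378 on GC pLN, against 1.71 on naive PP and 6.70 on naive pLN. It was bright on both GC arrays and under the detection level on both naive arrays, at least 22.7-fold higher, with a log2 difference of 6.87 ± 0.48 (limma's moderated SE, adjusted p = 8.0e-11). Pbk, a mitotic kinase, had 1914 and 1759 on the GC arrays of PP and pLN, against 28.6 and 42.6 on the naive arrays. Its naive signals were also under the level, and it was at least 20.5-fold higher (log2 difference 5.25 ± 0.44, adjusted p = 1.1e-09). Foxm1, the transcription factor of late cell cycle genes, showed the smallest difference of this step, with 1197 and 757 on the GC arrays against 272 and 201 on the naive arrays. The groups did not overlap, both naive arrays detected it, and the signal was 4.07-fold higher in GC cells (log2 difference 1.96 ± 0.41, adjusted p = 6.3e-04). Foxm1 was not called without GC PP (adjusted p = 0.225) or without GC pLN (adjusted p = 0.0743). The other entry genes had log2 differences from 2.44 for Cdc25b, a phosphatase that activates Cdk1, to 5.13 for Ccna2, cyclin A2. Between them stood Ccnb2 (cyclin B2) at 3.42, the kinase Plk1 at 3.64, Cdk1 itself at 3.74, the kinase Melk at 3.90 and Cdc25c at 4.41. Cdc25b was not called without either GC array (adjusted p = 0.114 and 0.0933 without that of PP and of pLN), nor Plk1 (0.0541) and Melk (0.0855) without GC PP.

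Both genes of chromosome structure were higher in GC cells. Mki67, the proliferation antigen that coats mitotic chromosomes, had signals of 10204 and 8548 on the GC arrays of PP and pLN, against 352 and 552 on the naive arrays. Every array detected it, and GC cells had 21.2-fold more signal (log2 difference 4.36 ± 0.42, adjusted p = 9.8e-09). Top2a, the topoisomerase that untangles sister chromatids, had 5467 and 5144 on the GC arrays, against 43.6 and 241 on the naive arrays. Its groups were far apart, with naive PP under the level and naive pLN above it (log2 difference 5.46 ± 0.45, adjusted p = 7.8e-10). Of the 2 other Top2a probe sets, 1 was under the level on all arrays, with a difference of -0.49 (adjusted p = 0.52), and the other gave 2.12.

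Of 11 kinetochore genes, 10 passed as higher, and the median log2 difference over the 11 was 3.32. Cenpf, a large protein of the outer kinetochore, had signals of 1074 and 648 on the GC arrays of PP and pLN, against 7.47 and 8.40 on the naive arrays. The naive arrays were both dark for it, so GC cells were at least 9.30-fold higher (log2 difference 5.31 ± 0.53, adjusted p = 1.9e-08). At the probe set brightest in naive cells, under the level on both naive arrays, Cenpf was not called (log2 difference 0.51, adjusted p = 0.564). Nuf2, a subunit of the Ndc80 complex that grips microtubules, had 2154 and 1886 on the GC arrays, against 50.3 and 28.9 on the naive arrays. It too was under the level in naive cells, and its fold was at least 22.5 (log2 difference 5.29 ± 0.43, adjusted p = 7.6e-10). The 2 smaller subunits of the same complex, Spc24 and Spc25, were 10.8-fold and 4.13-fold higher. Ndc80, which pairs with Nuf2 in that complex, was the kinetochore gene not called. It had 1135 and 889.7 on the GC arrays, against 493 and 520.5 on the naive arrays. Both GC arrays were higher and the groups did not overlap, but naive cells had a clear signal, and the log2 difference of 0.97 ± 0.40 did not pass (adjusted p = 0.076). The centromere histone Cenpa had a difference of 2.26, and the motor protein Cenpe 3.33. Cenpn, Cenpk, Cenph and Cenpi, of the inner kinetochore network, had 2.29, 2.66, 3.68 and 3.94. Cenpa, Cenpn and Spc25 were not called with either GC array left out (adjusted p from 0.0581 to 0.183).

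All 6 checkpoint genes were called higher, with a median of 4.34. Zwilch, of the complex with Zw10 and Kntc1 that recruits dynein to kinetochores, had signals of 3204 and 1778 on the GC arrays of PP and pLN, against 69.9 and 28.4 on the naive arrays. It was under the level in both naive samples and at least 26.6-fold higher (log2 difference 5.34 ± 0.42, adjusted p = 4.0e-10). Bub1, a checkpoint kinase at the kinetochore, had 2266 and 1647 on the GC arrays, against 53.6 and 45.2 on the naive arrays. It was at least 21.5-fold higher (log2 difference 4.95 ± 0.43, adjusted p = 1.7e-09). Mad2l1, the checkpoint protein that holds Cdc20, had 2212 and 2326 on the GC arrays, against 435 and 289.9 on the naive arrays. Naive cells thus had a measurable Mad2l1 signal, and GC cells had 6.39-fold more (log2 difference 2.63 ± 0.40, adjusted p = 1.3e-05). The checkpoint kinase Ttk had a difference of 4.24, Kntc1 4.44 and Bub1b 2.74, which was not called without GC PP (adjusted p = 0.0514).

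All 9 spindle genes were called higher, with a median of 4.76. Nusap1, which bundles microtubules near chromosomes, had signals of 2733 and 2814 on the GC arrays of PP and pLN, against 7.28 and 45.0 on the naive arrays. Both naive signals were under the level, and GC cells were at least 30.9-fold higher (log2 difference 6.32 ± 0.46, adjusted p = 1.2e-10). Spag5 (astrin), which helps to anchor microtubules at kinetochores, had 3498 and 2395 on the GC arrays, against 13.6 and 52.3 on the naive arrays. It was at least 32.3-fold higher (log2 difference 6.11 ± 0.46, adjusted p = 2.0e-10). Aurka, the kinase of spindle poles, had 1258 and 1052 on the GC arrays, against 169 and 269 on the naive arrays. The arrays of the 2 cell types did not overlap, and the signal was 5.39-fold higher in GC cells (log2 difference 2.36 ± 0.42, adjusted p = 8.9e-05), while its second probe set, under the level on all 4 arrays, gave -1.05 (adjusted p = 0.16). With the mean of both probe sets, Aurka was not called (log2 difference 0.65, adjusted p = 0.26). Nek2, a kinase that separates centrosomes, had 1129 and 884 on the GC arrays, against 53.3 and 175 on the naive arrays. Of its naive signals, that of PP was under the level (log2 difference 3.17 ± 0.46, adjusted p = 6.9e-06). A Nek2 probe set under the level on all arrays gave -0.40 (adjusted p = 0.64). Tpx2, which activates Aurka, had a difference of 4.76, Aspm of the spindle poles 5.26, Hmmr 5.28, Ckap2 2.98 and Dlgap5 2.86. Without GC PP, 4 spindle genes were not called, namely Aurka, Nek2, Ckap2 and Dlgap5 (adjusted p from 0.0699 to 0.0951), and without GC pLN Aurka (0.0619) and Dlgap5 (0.0627).

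Of the 4 genes of the chromosomal passenger complex, 3 were called higher. Birc5 (survivin) had signals of 7094 and 6851 on the GC arrays of PP and pLN, against 62.9 and 327 on the naive arrays. The naive PP signal was under the level and the naive pLN signal above it, both far below the GC signals (log2 difference 5.44 ± 0.45, adjusted p = 7.8e-10). Aurkb, the kinase of the complex, had 2655 and 1835 on the GC arrays, against 52.4 and 48.0 on the naive arrays. It was at least 24.6-fold higher (log2 difference 5.12 ± 0.43, adjusted p = 8.4e-10), and Cdca8 (borealin) had a difference of 4.12. Incenp, the scaffold of the complex, was not called at its brightest probe set, with 8796 and 7967 on the GC arrays, against 4299 and 4586 on the naive arrays. GC signals were higher in both tissues without overlap, yet the log2 difference was 0.91 ± 0.47 (adjusted p = 0.16). Its 3 other probe sets above the level in GC cells were called higher, at 1.16 (adjusted p = 0.033), 1.81 (adjusted p = 0.0016) and 2.56 (adjusted p = 0.0015). The last probe set, dark on all arrays, gave -1.19 (adjusted p = 0.092).

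Of the 4 genes of anaphase and mitotic exit, 3 were called higher. Ube2c, the ubiquitin-conjugating enzyme of the anaphase-promoting complex, had signals of 2113 and 2342 on the GC arrays of PP and pLN, against 12.0 and 134 on the naive arrays. The naive PP array was dark and naive pLN was just above its level (log2 difference 5.19 ± 0.48, adjusted p = 5.3e-09). Espl1, separase, had 784 and 552 on the GC arrays, against 9.68 and 12.7 on the naive arrays. Its fold was at least 7.33 (log2 difference 4.77 ± 0.53, adjusted p = 1.2e-07), and Cdc20 had a difference of 4.10.

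Pttg1, securin, the inhibitor that holds separase until anaphase, did not follow the other members. It had signals of 2685 and 2408 on the GC arrays of PP and pLN, against 2125 and 4277 on the naive arrays. Naive PP was the lowest of the 4 arrays and naive pLN the highest, so the groups overlapped, and the log2 difference was -0.24 ± 0.43 (adjusted p = 0.72). A second Pttg1 probe set had 726 and 779 on the GC arrays, against 1489.9 and 1205 on the naive arrays, and the remaining one had 509.5 and 389 against 724 and 686. Naive signals were the higher ones in both tissues at these 2 probe sets, but their differences of -0.82 (adjusted p = 0.13) and -0.65 (adjusted p = 0.25) did not pass. Securin transcripts were thus well above the level in naive cells, in which those of separase were not. The direction of the brightest probe set depended on the scaling, at 0.0059 with cyclic loess and 1.25 with spike-in scaling. Without the naive PP array Pttg1 was called lower in GC cells (log2 difference -0.75, adjusted p = 0.038), and without naive pLN it had 0.26.

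All 6 cytokinesis genes were called higher, with a median of 4.35. Shcbp1, a protein of the midbody, had signals of 4184 and 2712 on the GC arrays of PP and pLN, against 1.33 and 38.1 on the naive arrays. Both naive signals were under the level, which bounds the fold at 37.6 or more, and its log2 difference was 6.93 ± 0.49 (adjusted p = 8.3e-11). Ect2, which activates RhoA at the cleavage site, had 1755 and 1299 on the GC arrays, against 22.9 and 14.4 on the naive arrays. Both naive samples were under the level, and the signal was at least 16.8-fold higher (log2 difference 5.58 ± 0.47, adjusted p = 9.4e-10). Racgap1, the centralspindlin subunit that binds Ect2, had 1915 and 1421 on the GC arrays, against 229.8 and 91.5 on the naive arrays. Naive cells had signal above the level in both tissues, and GC cells had 11.4-fold more (log2 difference 3.38 ± 0.42, adjusted p = 5.6e-07). A Racgap1 probe set under the level on all arrays gave -0.37 (adjusted p = 0.53). The remaining values were 5.17 for Anln (anillin), 3.53 for Cit (citron kinase) and 3.49 for Prc1, which bundles the central spindle. At its probe set brightest in naive cells, Cit was not called (log2 difference 0.57, adjusted p = 0.463).

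**Figure D3:**
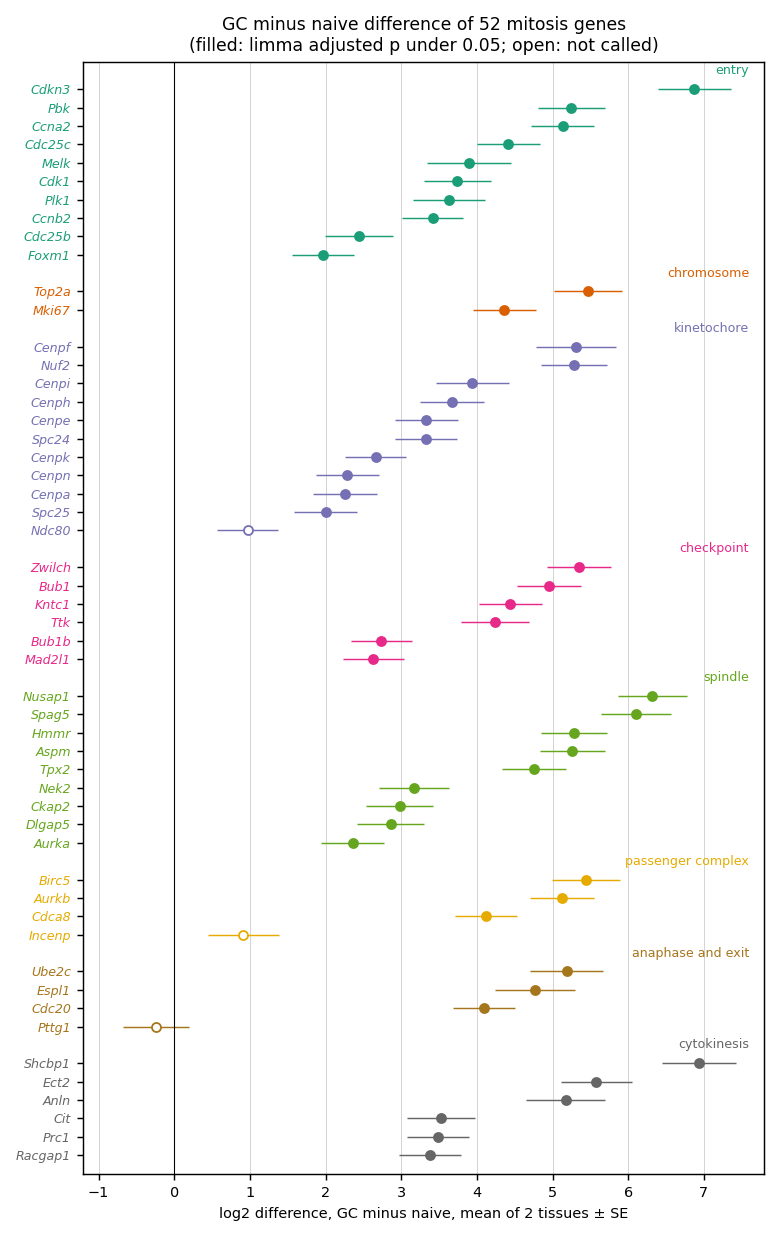
Log2 difference, GC minus naive, mean of the 2 tissues with limma's moderated SE, for 52 members by step. Filled points are the 49 called by limma at an adjusted p under 0.05, and the open points are Ndc80 at 0.97, Incenp at 0.91 and Pttg1 at -0.24.

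Counted by probe set, 91 of 109 were called higher and 0 lower, against 15.5% and 10.1% of all probe sets. Of the 18 not called, 10 were under the level on all 4 arrays. Without the GC PP array, in a fit with 1 GC array left, fewer member probe sets were called higher. The share over all probe sets in that fit is not given here. Of the 28 members with at least 2 probe sets that cleared the level on both GC or both naive arrays, 27 had all of these higher in GC cells, and 24 had all of them called higher. Pttg1 was the exception, with all 3 lower. Probe sets could pass this filter on the GC arrays alone, which fixes their direction in part. These counts are therefore no support for the difference. The size of the difference varied between these probe sets of a gene, with a median range of 1.34 on the log2 scale. Nusap1 ran from 2.36 to 6.32, Spag5 from 2.52 to 6.11, Hmmr from 1.85 to 5.28 and Cit from 0.57 to 3.59. Anln ran from 1.79 to 5.17, Top2a from 2.12 to 5.46, Aspm from 2.22 to 5.26 and Bub1 from 2.29 to 4.95. Cenpa ran from 0.65, which was not called, to 2.51. Dlgap5 (2.76 to 2.86), Racgap1 (3.38 to 3.54) and Cdca8 (3.75 to 4.12) gave nearly the same value at each probe set that cleared the level. Probe sets of 1 gene share the same RNA and are no replicates.

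Within each tissue, 1 array was set against 1 and no test is possible. All members were higher in GC cells in PP, and all except Pttg1 in pLN. In PP, 51 of 52 reached a 2-fold higher signal in GC cells and 0 a 2-fold lower one, against 17.2% and 17.0% of all genes. In pLN, 49 were higher and 0 lower, against 11.7% and 14.2%. The median log2 difference of the members was 4.58 in PP and 3.77 in pLN. It was larger in PP for 37 of 52 members, against 50.1% of all genes, and for 14 of the 21 members that both naive arrays detected. With dim signals set to the detection level it was larger in PP for 32 of 52 members, a smaller share than the 74.2% of all genes. With spike-in scaling the count was 49, against 79.4% of all genes, and with cyclic loess 31, against 48.3%. The naive PP array, which enters the PP values, also had the highest 3′ to 5′ ratio, and the SD of the log2 difference over all genes was 1.56 in PP and 1.17 in pLN. The part of these in the larger PP differences was not tested.

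**Figure D4:**
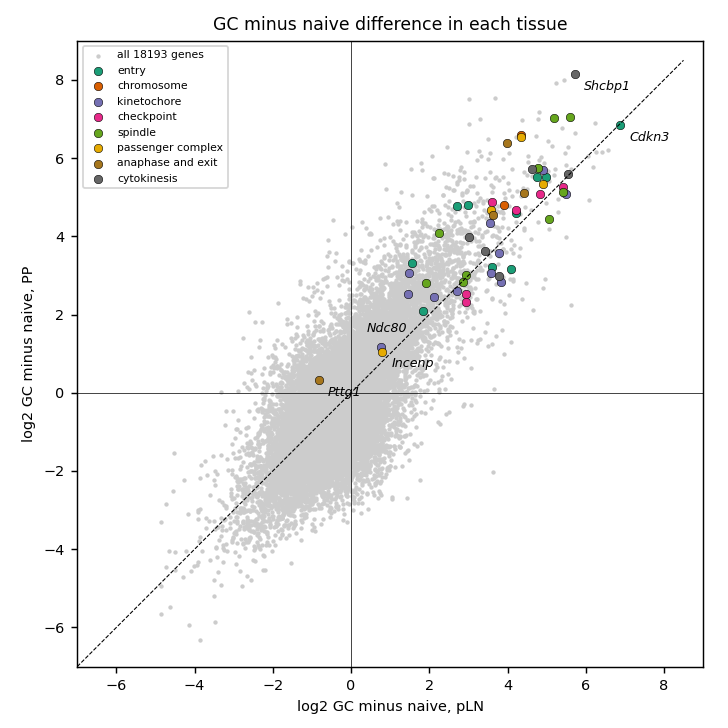
Log2 difference, GC minus naive, in pLN (x axis) and in PP (y axis), for 52 members coloured by step over all 18193 genes in grey. Most members lie far up and right of the bulk of genes, 37 of 52 have the larger difference in PP, and Pttg1 stands apart at 0.34 in PP and -0.83 in pLN.

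The GC cells of the 2 tissues were set against each other, again 1 array against 1. Of 52 members, 0 differed by 2-fold or more in either direction between GC PP and GC pLN, against 2.22% of all genes higher and 0.967% lower in PP. The PP minus pLN log2 difference in GC cells ran from -0.44 for Cdkn3 to 0.84 for Zwilch, followed by Cenpf at 0.72 and Foxm1 at 0.65. It was above 0 for 46 of 52 members, against 56.9% of all genes, with a median of 0.30 against 0.058. That count depended on the scaling. With the deposited scale, on which all arrays have equal medians, it was 27 of 52, against 37.3% of all genes, and the median of the members was 0.028. With quantile normalization it was 46, and with cyclic loess or spike-in scaling 45. With dim signals set to the detection level it was 46 of 52, against 74.3% of all genes, whose median of 0.63 was then above the 0.30 of the members. With 1 array on each side, no test of this shift is possible. Of 14 gut epithelial markers, 7 were above the level on GC PP and 1 on GC pLN, with summed signals of 2656 and 622. Some other markers also differed between these 2 arrays, with PP minus pLN log2 differences of 2.95 for Prdm1, 1.99 for Sdc1 and 3.31 for Itgax. Cd3d, Cd3e and Cd3g had 1.06, 1.24 and 1.30. Their lists did not move as a whole. The difference was above 0 for 6 of 7 plasma cell, 7 of 11 T cell and 8 of 12 macrophage and dendritic cell markers. The medians were 0.33, 0.23 and 0.10, and Cd2 had -1.21 and Mzb1 -0.15. The part of these markers in the shift was not tested.

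**Figure D5:**
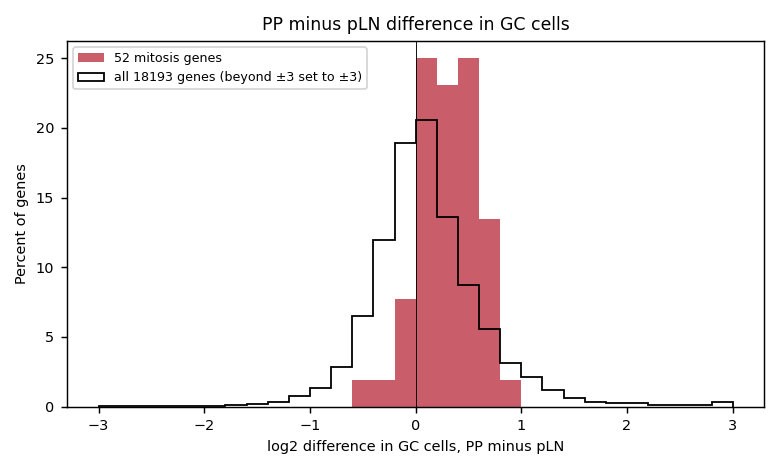
Distribution of the PP minus pLN log2 difference in GC cells, as percent of genes, for 52 members and for all 18193 genes. The members lie between -0.44 and 0.84 with a median of 0.30, and the median of all genes is 0.058.

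Between the naive arrays, 2 members were higher and 8 lower by 2-fold or more in PP than in pLN, against 5.71% and 8.64% of all genes. The higher ones were Racgap1, with a log2 difference of 1.21, and Cenpe at 1.18. Ube2c, at 12.0 on naive PP and 134 on naive pLN, had the lowest value, -2.53. Top2a and Birc5 both had -2.15, Cdc25b -1.63, Cdk1 -1.55, Nek2 -1.50 and Cenpa -1.35. Pttg1, described above, was the eighth. Of these 8, Ube2c, Top2a, Birc5 and Nek2 were under the detection level on naive PP. Other probe sets of these genes did not all share the direction, and several were under the level on the naive arrays. For Racgap1 they had -0.08 and 1.07, and for Cenpe -0.31. Those of Cenpa, Pttg1 and Top2a were above 0, and those of Nek2 ran from -0.55 to 0.0057. Ube2c, Birc5, Cdc25b and Cdk1 have no other probe set. In all, 23 members were above the level on naive PP and 29 on naive pLN. The epithelial markers above the level numbered 9 on naive PP and 2 on naive pLN, with summed signals of 6453 and 1460.

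A wider list of 74 genes of mitosis that are no members, 72 of them measured, moved less evenly. Of these 72, 39 (54.2%) were called higher in GC cells, 4 lower and 29 were not called. Over all genes, 12.7% were called higher and 14.7% lower. The median log2 difference of the 72 was 1.31. The midbody protein Cep55 had 5.47 ± 0.42 (adjusted p = 2.3e-10), Ska3 of the outer kinetochore 5.27 ± 0.57 (adjusted p = 7.5e-08) and the kinetochore scaffold Knl1 4.96 ± 0.44 (adjusted p = 2.8e-09). Those called lower were Anapc5 (-2.22 ± 0.55, adjusted p = 0.0031) and Cdc16 (-1.47 ± 0.45, adjusted p = 0.016), subunits of the anaphase-promoting complex, Pmf1 of the kinetochore (-1.81 ± 0.43, adjusted p = 0.0020) and Tubg1, gamma-tubulin (-1.20 ± 0.41, adjusted p = 0.028). With spike-in scaling, which moved the median of all genes by 1.01, 0 of the 72 were called lower. The checkpoint protein Bub3 (-0.01 ± 0.46, adjusted p = 0.99) and Anapc1 (-0.03 ± 0.41, adjusted p = 0.97) were not called. Fewer of the 72 were called higher without the GC PP array or without the GC pLN array, in fits with 1 GC array left. The shares over all genes in those fits are not given here. Of 33 genes of the G1 to S transition and DNA replication, 22 (66.7%) were called higher, 1 lower and 10 were not called. Their median was 1.63, and the shares over all genes were again 12.7% higher and 14.7% lower.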

How the data were processed

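Gene expression was measured on 4 single-colour Affymetrix arrays, 1 per group. Per the labels' protocols, TRIzol RNA of sorted cells was made into biotinylated cRNA, and per the submitters' processing notes the software was GCOS, with the version not stated. On every array the deposited intensities, which are linear, have a median of 1. How that scale was set is not given in the sources used here.

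Arrays were brought to a 2% trimmed mean of 500, an offset of 13.5 was added, and log2 was taken, so differences of dim genes are understated. All 45037 probe sets other than the 64 controls were fitted in R 4.3.3 by limma 3.58.1, in a model of cell type and tissue whose eBayes step used an intensity trend, and called at a Benjamini-Hochberg adjusted p under 0.05. The fit has 1 residual degree of freedom and a median prior of 27.4. The step was also run on simulated arrays with independent noise and no 3′ bias, which cannot support the calls made here. Of the probe sets, 34945 had 1 gene symbol, 932 several, and the others were unnamed. A gene was read at its probe set of highest mean log2 level over the 4 arrays. Single-array comparisons were counted at 2-fold with the brighter array above its detection level, with no test. The number of arrays limits the precision.

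In each step of mitosis, the text gives the 2 members with the highest and the 1 with the lowest difference. It also gives members not called, members with a probe set in the other direction and the 3 with the largest PP minus pLN difference in GC cells. Members, lists and rules were chosen with earlier results of these data known.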

Additional observations from a re-analysis of the deposited data

Results flagged for a closer look

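Pttg1, which encodes securin, was the member whose GC minus naive difference had opposite signs in the 2 tissues. On the log2 scale it was 0.34 in PP and -0.83 in pLN. With 1 array in each group, the difference between the tissues was not tested. At its 2 other probe sets the difference was below 0 in both tissues, at -1.02 and -0.50 in PP and at -0.62 and -0.80 in pLN.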

How the results depend on the processing

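Alternatives changed the scaling, offset, filter on dim probe sets, treatment of dim signals, tissue block, intensity trend, choice of probe set and fold threshold, or left out 1 array. Over 17 alternatives, 35 of the 52 members kept their direction and call in all of them. The number of members called higher ran from 47 to 51 over the alternatives that kept all arrays and from 37 to 51 with 1 array left out. The members lost without GC PP were Foxm1, Cdc25b, Plk1, Melk, Cenpa, Cenpn, Spc25, Bub1b, Aurka, Ckap2, Dlgap5 and Nek2. Those lost without GC pLN were 7 of these. The number called lower was 0 to 1 with an array left out. Of member probe sets, 2 were called lower with quantile normalization and with cyclic loess, and leaving out an array gave 56 to 90 higher and 0 to 3 lower. Of the other mitosis genes, 0 were called lower with spike-in scaling, 2 without the tissue block and 2 when each gene was the mean of its probe sets. Leaving out an array gave 16 to 42 higher and 0 to 9 lower. Pttg1 changed sign with cyclic loess (0.0059), with spike-in scaling (1.25) and without naive pLN (0.26), and it was called lower without naive PP (-0.75). Incenp was called higher with quantile normalization (1.56), cyclic loess (1.59), spike-in scaling (2.42), probe sets averaged (1.05), without naive PP (0.87) and without naive pLN (0.96). Ndc80 was called higher with spike-in scaling (2.44), probe sets averaged (0.97) and without naive pLN (1.01). Having 1 probe set, Ndc80 kept the value of the main fit under averaging. When read at whichever probe set was brightest in naive cells, Cenpf (0.51, adjusted p = 0.56) and Cit (0.57, adjusted p = 0.46) were not called. At 1.5-fold, 1 member was lower in GC cells of pLN, and 9 were higher in GC PP than in GC pLN, against 1 with quantile normalization at 2-fold. Between the naive arrays, the members higher in PP numbered 0 with the deposited scale, 0 with an offset 4 times as large, 0 with probe sets averaged, 5 at 1.5-fold and 0 at 3-fold. Those lower numbered 5 with probe sets averaged, 15 at 1.5-fold and 4 at 3-fold. Shares over all genes are given here at 2-fold only, so no trait of the members is read from the counts at 1.5-fold and 3-fold. With the 75th percentile as the detection level, 36 members were above it on naive PP, against 23. The cause of these changes was not tested. Spike-in scaling moved the median of all genes by 1.01, cyclic loess by 0.13, the larger offset by 0.15 and dim signals set to the level by 0.19. Members higher in GC cells numbered 51 to 52 of 52 in every setting, with medians from 3.45 to 5.33. The tissue block of the main fit pairs the GC array with the naive array of the same tissue. No further pairing was possible because each group is 1 array. Left-out-array fits had no tissue block and assume that the lone array of a cell type varies like the others. Shares over all genes in those fits are not given here, so their counts are not read as particular to the members. Signals under the detection level limit folds to bounds.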
